A study of Mus musculus with 2 samples.

Results

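The genes described here are 10 immediate-early genes of the EGR, IER and NR4A families together with Srf, out of 55450 genes quantified in nuclear RNA of mouse macrophages. They were chosen by symbol: Egr1, Egr2, Egr3, Ier2, Ier3, Ier5, Nr4a1, Nr4a2, Nr4a3 and Srf. All 10 were found in the annotation under a single gene identifier each.

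The cells were bone marrow-derived macrophages (BMDM) of C57BL/6J mice, with no genetic change named in the labels. Lipid A, the membrane anchor of lipopolysaccharide and ligand of Toll-like receptor 4, was given at 100 ng/ml for 12 h. It was then removed for 12 h, and the cells were stimulated again at 100 ng/ml for 25 min. Nucleoplasmic RNA was depleted of ribosomal RNA and sequenced in 2 biological replicates, which form the only group, so levels are described for this condition and no change caused by lipid A can be measured here. The age and sex of the mice were not recorded, and the labels give a common donor entry for both replicates, and how far their spread is technical is therefore not known. Replicate 1 started from 500 ng of RNA and replicate 2 from 1 µg, and the replicate and the starting amount cannot be told apart.

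Immediate-early genes are transcribed within minutes of a stimulus without needing new protein synthesis. EGR proteins are zinc-finger transcription factors whose promoters respond to ERK signalling through serum response factor (SRF), which binds CArG boxes together with ternary complex factors such as ELK1 or with the actin-sensing MRTF cofactors. NR4A proteins are orphan nuclear receptors that act without a known bound hormone, respond to cAMP and calcium signalling through CREB as well as to inflammatory stimuli, and are known in macrophages for restraining inflammatory gene expression. The IER products are small proteins without a DNA-binding domain of the classical kinds. IER3 is known for its role in cell survival and as an NF-kB target, and IER5 for binding the heat-shock factor HSF1 and the phosphatase PP2A.

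The gene tables held 20196408 expected counts for replicate 1 and 19588980 for replicate 2. All 10 macrophage markers reached a TPM (the deposited abundance, scaled per transcript length) of 1 in both replicates, and their medians were 140 and 148 TPM. Markers of other cells were low except for Kdr. Those at 1 TPM in both were 0 of 5 neutrophil, 0 of 6 lymphocyte, 1 of 3 dendritic cell and 1 of 5 stromal or endothelial markers. The last was Kdr, at 9.67 and 18.3 TPM, from 1055 and 2176 expected counts. Kdr lay above 50.9% and 72.8% of protein-coding genes with at least 10 counts in both replicates. The neutrophil markers had 0 expected counts throughout. A count of 0 allows up to 3 per library. In the kallisto-layout table, described below, the neutrophil genes Cxcr2 and Mpo did have estimated counts, 315 and 206 for Cxcr2 and 80.9 and 25.8 for Mpo, while Ly6g, Elane and Retnlg had 0 to 7. The lymphocyte gene Cd3d had 497 and 204 in that table, or 6.96 and 1.01 TPM, and Ms4a1 had 53.2 and 33.3. The other lymphocyte markers had 0 to 5. Among the stromal and endothelial markers, Col1a1 had 103 and 39.8, Pdgfra 84.3 and 94.0, Cdh5 10 and 29 and Col3a1 2 and 0. The part of these markers in the results below was not tested. In bulk RNA of this kind, fewer cells of a type and less RNA per cell cannot be told apart.

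Promoter sequences come first, and their motifs were chosen with the levels given below known. RefSeq (GRCm38.p6) promoter entries matched 7 of the 10 symbols, with 11 listed start sites in all. Egr1, Egr3 and Ier2 were the others. The 250 bases before each start were searched on both strands. The half-site of the cAMP response element, TGACG, occurred 4 times in the window of each NR4A gene. It also occurred before Egr2 and Srf, so that 5 of 7 genes held it, against 19.8% of 27025 genes with an entry. The NR4A windows were rich in GC (74.4% for Nr4a1, 80.0% for Nr4a2 and 63.6% for Nr4a3), and 27.1% of the 9178 windows with a GC content of 60% or more held at least 1 half-site. At least 4 half-sites were held by 0.137% of all 32851 windows and by 0.370% of these GC-rich windows. The sequences below show where the half-sites lie, in capitals, with the reverse strand read as CGTCA. For Nr4a3 only the 98 bases outside annotated exons are shown, with 3 of its 4 half-sites.
Nr4a1 (chr15:101266596-101266845, plus strand): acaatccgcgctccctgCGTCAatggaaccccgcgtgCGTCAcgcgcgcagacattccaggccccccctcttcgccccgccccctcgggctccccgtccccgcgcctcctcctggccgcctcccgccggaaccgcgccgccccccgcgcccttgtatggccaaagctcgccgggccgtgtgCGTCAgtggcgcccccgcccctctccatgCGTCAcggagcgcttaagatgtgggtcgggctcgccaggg
Nr4a2 (chr2:57124004-57124253, minus strand): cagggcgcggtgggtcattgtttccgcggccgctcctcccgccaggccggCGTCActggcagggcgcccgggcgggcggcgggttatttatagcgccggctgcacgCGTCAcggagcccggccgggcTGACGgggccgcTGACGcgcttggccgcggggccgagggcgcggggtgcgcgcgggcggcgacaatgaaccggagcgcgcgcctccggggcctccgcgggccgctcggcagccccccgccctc
Nr4a3 (chr4:48045055-48045152, plus strand): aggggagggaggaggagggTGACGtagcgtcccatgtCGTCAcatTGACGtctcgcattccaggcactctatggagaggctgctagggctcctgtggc

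The whole 8-base element TGACGTCA was found in none of the 7 genes, against 1.77% of all genes. The EGR binding sequence GCGNGGGCG was found before Nr4a1, Nr4a2 and Srf, and 5.33% of all genes held it. A CArG box, the binding sequence of SRF, was found before Egr2 and before Srf itself, and 1.62% of all genes held one. These promoters are shown because the factor and its sequence are both among the genes described. The Egr2 window is that of the third of its 5 listed starts, with its box 63 bases before the start. Srf has 2 boxes, 73 and 53 bases before the start, and is shown up to the first annotated exon base. Capitals mark the CArG boxes.
Egr2 (chr10:67537619-67537868, plus strand): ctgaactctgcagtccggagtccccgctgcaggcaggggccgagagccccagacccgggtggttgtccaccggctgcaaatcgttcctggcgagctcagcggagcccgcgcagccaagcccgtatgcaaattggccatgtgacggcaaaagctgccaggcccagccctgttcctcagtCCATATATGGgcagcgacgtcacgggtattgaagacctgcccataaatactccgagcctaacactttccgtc
Srf (chr17:46556176-46556412, minus strand): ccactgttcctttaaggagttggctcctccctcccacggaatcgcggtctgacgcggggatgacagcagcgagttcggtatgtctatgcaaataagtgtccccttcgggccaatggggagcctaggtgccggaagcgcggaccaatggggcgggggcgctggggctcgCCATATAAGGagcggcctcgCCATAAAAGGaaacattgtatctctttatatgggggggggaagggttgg

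An NF-kB site was found before Ier3 and before the first listed start of Egr2, and 8.23% of all genes held one. The NR4A monomer sequence AAAGGTCA was found in none of the 7, against 1.55% of all genes, and the TATAAA sequence, read on the gene's own strand, in none, against 8.94%. The half-site is part of the whole element, and no match of another motif overlapped those shown in capitals. A match describes letters in these windows and does not show binding.

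Many immediate-early mRNAs carry the pentamer ATTTA in the 3′ untranslated region (UTR), the core of AU-rich elements through which mRNAs are degraded. The annotated 3′ UTR held at least 1 pentamer in 9 of the 10 genes, all but Ier2, against 67.6% of 11080 detected protein-coding genes. Their median density was 1.97 pentamers per kb against 1.29 per kb. Ier3 had the densest UTR, with 5 pentamers in 613 bases, or 8.16 per kb, followed by Nr4a1 with 3 in 543 bases, or 5.52 per kb. The longer element TTATTTATT was present in Srf alone among the 10, and in 7.55% of detected genes. A window of 30 bases is shown for each of the 2 densest UTRs, with the pentamers in capitals.
Ier3 (chr17:35822485-35822514, plus strand): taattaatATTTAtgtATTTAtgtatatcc
Nr4a1 (chr15:101274702-101274731, plus strand): ATTTAtatttgtgtattttcctggATTTAt

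Levels were compared per length, as TPM. Of the 10 genes, 8 reached 1 TPM in both replicates, against 45% of the 21938 protein-coding genes outside the mitochondrial genome. All 10 had at least 10 expected counts in both, as did 11362 of the 21938. Of those 11362 genes, 9855 reached 1 TPM in both, so 8 of 10 is not high beside expressed genes. The medians of the 10 genes were 11.1 and 7.11 TPM in replicates 1 and 2 (9.11 ± 2.83, SD, n = 2). The detected protein-coding genes, those with at least 10 counts in both, had medians of 9.34 and 7.82 TPM, so the middle of the group lay close to that of expressed genes, while its members ranged from 0.34 to 99.5 TPM.

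**Figure D1:**
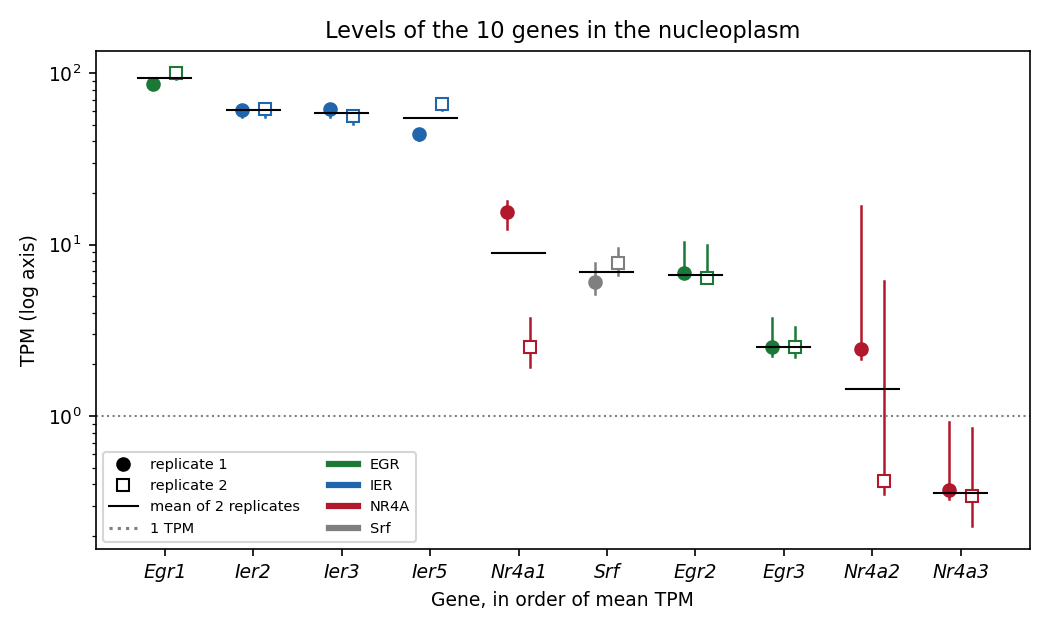
TPM of each gene (log axis) in replicate 1 (filled circles) and replicate 2 (open squares), in order of mean TPM, with vertical lines for the deposited TPM interval of each library and black bars for the mean of 2 replicates. Egr1, Ier2, Ier3 and Ier5 lie above 40 TPM in both replicates, and the 2 symbols stand far apart only for Nr4a1 and Nr4a2. Point values of genes such as Egr1 can lie just above their interval, which belongs to the deposited posterior mean.

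Among the EGR genes, Egr1 stood highest of all 10. Egr1 (ENSMUSG00000038418.7, mm10 chr18:34859823-34864984, plus strand) was at 86.7 and 99.5 TPM in replicates 1 and 2 (93.1 ± 9.10, SD, n = 2), from 5136 and 6754 expected counts. That placed it above 94.97% and 96.3% of detected protein-coding genes. Its lower replicate exceeded the higher replicate of every other gene of the group. EGR1 is the founding member of the family and a broad activator in stimulated cells.

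Egr2, which encodes a factor known for myelination and for macrophage and lymphocyte regulation (ENSMUSG00000037868.15, chr10:67535475-67542188, plus strand), was at 6.83 and 6.41 TPM (6.62 ± 0.297), from 365 and 373 counts. Egr3, a close relative known for muscle spindle development and lymphocyte function (ENSMUSG00000033730.4, chr14:70077203-70082614, plus strand), was listed at 2.54 TPM in both replicates, from 186 and 199 counts. The 3 EGR genes thus formed 3 separate levels, whose replicate ranges did not overlap, and each gene's own replicates were close. Egr4, the fourth family member, had 0 counts in both replicates, which allows up to 3.69 in each.

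The IER genes stood together near 60 TPM. Ier2 (ENSMUSG00000053560.4, chr8:84661331-84662852, minus strand) was at 61.0 and 61.4 TPM (61.2 ± 0.339), from 1576 and 1786 counts. Ier3 (ENSMUSG00000003541.6, chr17:35821684-35822923, plus strand) was at 61.4 and 56.3 TPM (58.8 ± 3.57), from 1110 and 1158 counts. Ier5 (ENSMUSG00000056708.5, chr1:155096361-155099636, minus strand) was at 44.0 and 65.9 TPM (55.0 ± 15.5), from 2670 and 4433 counts. The 3 could not be ranked, since their replicate ranges overlapped. Ier5 was the least even of them: it was the lowest of the 3 in replicate 1 and the highest in replicate 2. Its paralogue Ier5l had 3 and 13 counts, or 0.06 and 0.24 TPM.

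The NR4A genes were the lowest and the least even family. Nr4a1 (Nur77, ENSMUSG00000023034.7, chr15:101254269-101274795, plus strand) was at 15.4 TPM in replicate 1 but 2.52 TPM in the other (8.96 ± 9.11, SD, n = 2). These values rest on 410 counts (95% exact Poisson interval 371 to 452) and 90 counts (72.4 to 111), intervals that cover counting error only. Nr4a2 (Nurr1, ENSMUSG00000026826.13, chr2:57106830-57124003, minus strand) was at 2.46 and 0.42 TPM (1.44 ± 1.44), from 133 counts (111 to 158) and 22 counts (13.8 to 33.3). In both genes replicate 1 was the high one, and the counting intervals of the replicates did not overlap.

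Nr4a3 (Nor1, ENSMUSG00000028341.9, chr4:48045153-48086447, plus strand) was at 0.37 and 0.34 TPM (0.355 ± 0.0212), from 39 counts (27.7 to 53.3) and 25 counts (16.2 to 36.9). It was the lowest of the 10 in both replicates, above 2.79% and 3.49% of detected protein-coding genes, and its counting intervals overlapped. Srf (ENSMUSG00000015605.6, chr17:46548329-46556175, minus strand) was at 6.08 and 7.81 TPM (6.95 ± 1.22), from 224 and 315 counts. An antisense long noncoding RNA gene, Gm26904, overlaps Srf and had 10.2 and 21.8 counts. No source used here gives the strand setting of the counting, so reads of the 2 genes may be mixed, to an extent not known.

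In the order of mean TPM, the replicate ranges separated Egr1 from Ier2, Ier5 from Nr4a1, Egr2 from Egr3, Egr3 from Nr4a2 and Nr4a2 from Nr4a3. The last 2 gaps were narrow, with 2.54 TPM for Egr3 against 2.46 for the higher replicate of Nr4a2, and 0.42 for its lower replicate against 0.37 for Nr4a3. The order of Egr3 and Nr4a2 turned in the kallisto layout, where Nr4a2 was at 9.40 and 1.09 TPM and Egr3 at 2.31 and 0.890 TPM. By posterior mean TPM it turned in replicate 1 only, with 7.17 and 2.38 for Nr4a2 against 2.91 and 2.73 for Egr3. Ranges overlapped between Ier2 and Ier3, Ier3 and Ier5, Nr4a1 and Srf, and Srf and Egr2. The order itself shifted with the library: Nr4a1 was the fifth in replicate 1 and the eighth in replicate 2, below Srf, Egr2 and Egr3.

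By family, the IER genes held 58.0% and 60.6% of the summed TPM of the 10 genes (59.3 ± 1.80%, SD, n = 2), from sums of 166 and 184 TPM. The EGR genes held 33.5% and 35.8% (34.6 ± 1.61%), most of it Egr1. The NR4A genes held 6.36% in replicate 1 and 1.08% in replicate 2 (3.72 ± 3.73%), as their sum went from 18.2 to 3.28 TPM. Counted without regard to length, the EGR and IER shares were nearly equal, at 48.2 ± 0.244% and 46.9 ± 2.46% of expected counts. Ier3 and Ier2 have the shortest mRNAs of the 10, of 1131 and 1522 bases.

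Between the replicates, 2 of the 10 genes were over 2-fold lower in replicate 2 by TPM and none was over 2-fold higher. Across the 14587 genes with at least 10 counts in both replicates, 8.8% were over 2-fold lower and 2.43% over 2-fold higher. The 2 were Nr4a1, 6.11-fold higher in replicate 1, and Nr4a2, 5.86-fold higher in replicate 1. These are ratios of single libraries and have no replicate check or p-value. TPM as a whole was shifted: the median log2 ratio of replicate 2 over replicate 1 across detected genes was -0.28. With TMM-normalised counts scaled to library size (CPM), whose median log2 ratio was 0.01, the same 2 genes passed 2-fold, where 2.87% of detected genes were over 2-fold lower.

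On the CPM scale Nr4a1 was 4.11-fold higher in replicate 1 (log2 ratio -2.04, 95% counting interval -2.38 to -1.71). Nr4a2 was 5.45-fold higher (log2 ratio -2.45, counting interval -3.17 to -1.79). Of the genes whose mean CPM lay within 2-fold of that of Nr4a1, 4 of 4062 had a lower ratio. For Nr4a2 it was 4 of 3476. Both therefore lay at the low edge of genes of their own depth. Nr4a3 had a log2 CPM ratio of -0.49, with a counting interval of -1.28 to 0.27 that includes no difference.

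**Figure D2:**
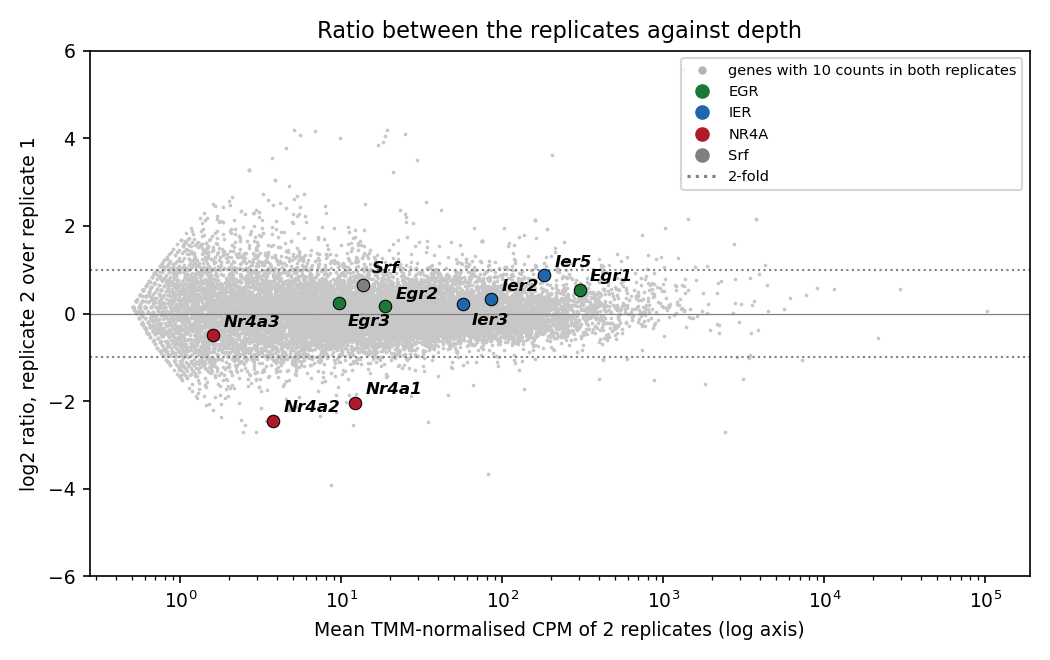
Log2 ratio of replicate 2 over replicate 1 in TMM-normalised CPM against mean CPM (log axis), with each grey point 1 of 14587 genes with at least 10 expected counts in both replicates. Coloured points are the 10 genes, and dotted lines mark 2-fold. Nr4a1 and Nr4a2 lie at -2.04 and -2.45, below nearly all plotted genes of their depth, and the EGR, IER and Srf points lie between 0.18 and 0.88.

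The 7 EGR, IER and Srf genes were all somewhat higher in replicate 2 on the CPM scale, where the median log2 ratio over detected genes was 0.01. None of the 7 passed 2-fold. Ier5 was the farthest, at 1.84-fold (log2 ratio 0.88), above all but 3.72% of genes of similar depth. Srf followed at 1.56-fold (0.64) and Egr1 at 1.46-fold (0.55). Ier2 (0.33), Egr3 (0.25), Ier3 (0.21) and Egr2 (0.18) were nearer to no difference. The counting intervals of Egr3 (-0.05 to 0.54) and Egr2 (-0.03 to 0.39) include no difference. By TPM, without rescaling, the signs of Ier3 (-0.12) and Egr2 (-0.09) turned and Egr3 was at 0, but these ratios still lay above the TPM median of -0.28.

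**Figure D3:**
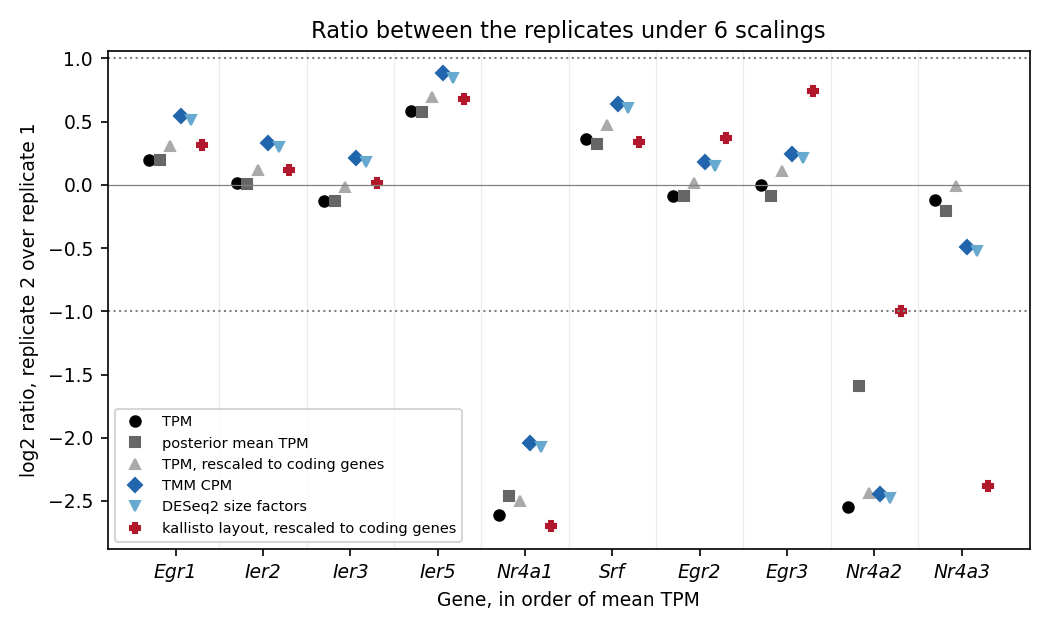
Log2 ratio of replicate 2 over replicate 1 for each gene under 6 scalings, with dotted lines at 2-fold. Nr4a1 lies below -2 under all 6. Nr4a2 ranges from -2.55 by TPM to -0.99 in the kallisto layout after rescaling to protein-coding genes, and Nr4a3 is at -2.38 in that layout against -0.12 by TPM.

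The size of the NR4A difference depended on the table for Nr4a2 and Nr4a3. In the second quantification, which has the column layout of kallisto and was rescaled to protein-coding genes, Nr4a1 was 6.50-fold higher in replicate 1. Nr4a2 was 1.99-fold higher there, just under 2-fold, and Nr4a3 was 5.20-fold higher. The 2 tables differed most for those 2 genes: the kallisto-layout count was 3.38 and 5.72 times the expected count for Nr4a2 and 5.26 and 2.16 times for Nr4a3, against medians of 1.74 and 1.33 over detected genes. For Ier5 the ratios were 1.43 and 1.07. The deposited TPM interval for Nr4a2 was also wide, from 2.16 to 16.7 in replicate 1 and from 0.352 to 6.15 in replicate 2, and the intervals overlapped. Those of Nr4a1, 12.4 to 18.1 and 1.94 to 3.71, did not overlap.

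The transcript tables show how the counts were divided among annotated isoforms. The 3 IER genes have a single annotated transcript each. Egr1 has 2 coding transcripts with the same coding sequence: the 3036-base Egr1-202 took 88.5% and 81.5% of the gene's TPM, and the 4484-base Egr1-201, with 1448 bases of its own, took 11.5% and 18.5%. Egr1-202 has no base of its own but removes an extra intron of 36 bases before the coding sequence, so the split rests on that junction and on the bases of Egr1-201. Egr2-201 took 81.8% and 83.5% of Egr2. In the kallisto layout it took 47.0% and 36.8%, beside 25.2% and 37.2% for the 427-base Egr2-204.

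Egr3 was split differently in the 2 libraries although its total was the same. In replicate 1 the coding Egr3-204 took 57.1% of TPM and the intron-retaining Egr3-202 42.9%. In replicate 2 Egr3-204 was listed at 0 and Egr3-202 took 96.1%. Apart from their last bases, these isoforms differ by the first exon of Egr3-204 and by 157 intronic bases at the start of Egr3-202, 4.05% of its 3876 bases. In the kallisto-layout table Egr3-202 took 41.7% and 40.0%. Egr3-204 went from 18.5% to 0 there as well, while the 489-base processed transcript Egr3-203 went from 29.2% to 43.2%. The acceptor site that Egr3-202 reads through is shown, with intron bases in lower case and exon bases in capitals.
Egr3-202 (chr14:70078881-70078910, plus strand): ccccgctctccgcagAGAATGTGATGGACA

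Annotated intron-retaining transcripts were also quantified for Nr4a1 and Srf. For Nr4a1 the 893-base Nr4a1-204, of which 654 bases are intron, took 19.5% and 25.8% of TPM and 9.80% and 11.1% of expected counts. For Srf the 2 transcripts Srf-203 and Srf-204 together took 27.0% and 28.7% of TPM but 5.72% and 6.61% of expected counts, since short transcripts weigh more per length. Over 6848 detected genes with an annotated intron-retaining transcript, the median share was 24.9% and 26.0% of TPM. By TPM Nr4a1 stood above 40.8% and 49.6% of such genes, Srf above 53.2% and 54.8% and Egr3 above 75.2% and 99.3%. These places depended on the table. In the kallisto layout the shares were 9.36% and 14.1% for Nr4a1, above 14.1% and 20.8% of genes, and 53.7% and 55.8% for Srf, above 79.4% and 83.7%. Egr3 was above 65.3% and 65.2% there. The donor sites read through by 2 of these transcripts are shown in the same lettering.
Nr4a1-204 (chr15:101273179-101273208, plus strand): TGGTCCTCATCACTGgtgagtggcagaaac
Srf-204 (chr17:46550886-46550915, minus strand): CCTCCAGCGGGACAGgtataactctttgcc

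**Figure D4:**
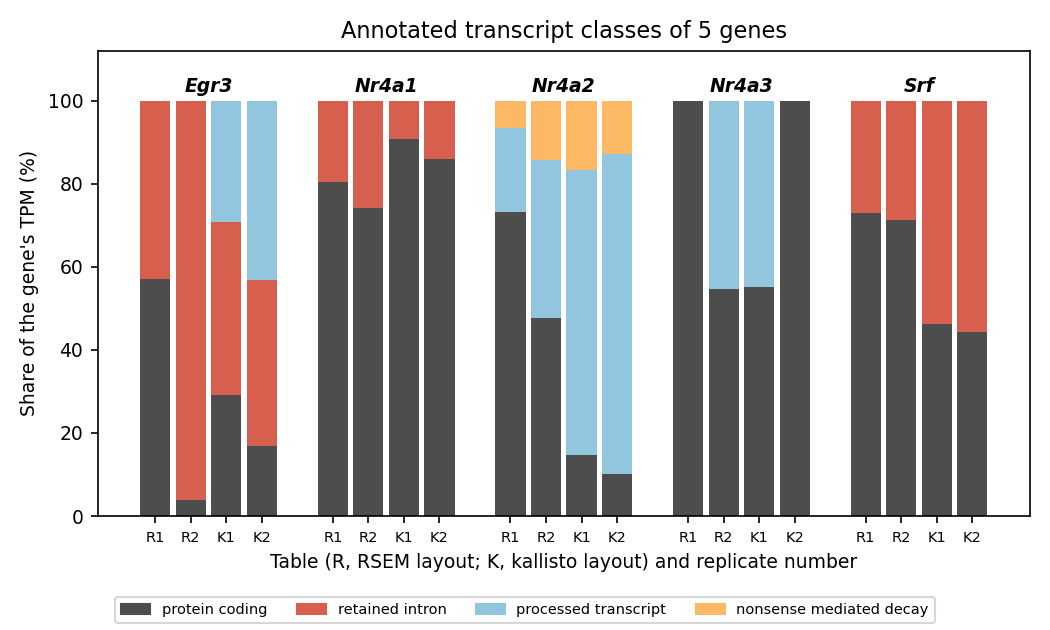
Share of each gene's TPM by annotated transcript class for the 5 genes with more than 1 class, in the RSEM-layout (R) and kallisto-layout (K) tables for replicates 1 and 2. Within a table the shares of Srf and Nr4a1 move little between replicates. The coding share of Egr3 is lower in replicate 2 in both tables, and for Nr4a2 the coding share is 73.2% and 47.6% in the RSEM layout and 14.6% and 10.2% in the kallisto layout.

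Short transcripts weighed on the NR4A levels. For Nr4a1 the full-length Nr4a1-201 (2477 bases, 7 exons) held 87.5% and 87.8% of expected counts but 51.9% and 62.7% of TPM. The 344-base Nr4a1-203 added 4.39 TPM in replicate 1 from 11 counts. Nr4a1-201 alone was at 8 and 1.58 TPM, from 359 and 79 counts. For Nr4a2 the 182-base Nr4a2-204 was listed at 0 in the RSEM layout, while in the kallisto layout 13 and 6 estimated counts on it made 64.9% and 71.4% of the gene's TPM. The level of Nr4a2 per length therefore depended on how few reads were placed on this short entry. In Nr4a3 no isoform split can be read at 39 and 25 counts.

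The genes are short. The most abundant coding transcripts of the 10 had a median of 2.5 exons and spanned a median of 4778.5 bases of genome, against 8 exons and 20600 bases over 11343 detected protein-coding genes. Ier2 and Ier5 have a single exon, as do 2.64% of detected genes, and 5 of the 10 (Egr2, Egr3, Ier2, Ier3 and Ier5) have at most 2, as do 8.08%. The 3 NR4A genes and Srf have 7 or 8 exons. Nr4a3 has the longest span, 41293 bases, and Nr4a2 the next, 17174 bases. Lengths of mature mRNA were ordinary, with a median of 3000.5 bases against 2877. Sequence shared with other genes was small: at most 0.523% of the 31-base words of any of the 10 occurred in another gene. For Nr4a2 and Nr4a3, the genes on which the tables differed most, 11 and 28 such words occurred in 2700 and 203 other genes, against at most 3 for the other 8. Whether these words bear on the difference between the tables was not tested.

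The list of 30 regulators and partners, genes that control or act with these factors, was mostly detected. Of the 30, 28 had at least 10 counts in both replicates and 27 reached 1 TPM in both, with medians of 21.5 and 16.1 TPM. Beside them, 9877 of 21938 protein-coding genes reached 1 TPM in both, and 9855 of the 11362 detected ones. The EGR corepressor genes Nab1 and Nab2 were at 22.4 and 16.5 TPM and at 6.89 and 7.38 TPM, and Nab2 is itself an EGR target. Rxra, which encodes the retinoid X receptor that pairs with NR4A1 and NR4A2, was at 14.0 and 12.7 TPM.

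Cofactors of SRF were present at levels above that of Srf itself. Elk4 was at 42.4 and 36.1 TPM, Elk1 at 16.5 and 9.19 TPM and Elk3 at 8.98 and 6.24 TPM, the last overlapping the Srf range. Mrtfa was at 22.7 and 35.8 TPM and Mrtfb at 14.99 and 11.5 TPM. Creb1, whose product binds cAMP response elements, was at 36.5 and 22.8 TPM.

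The 3 highest genes of the list act in or against MAP kinase signalling. Dusp1, a MAP kinase phosphatase and itself an immediate-early gene, was at 146 and 99.6 TPM. Map3k8, the kinase TPL2 that carries Toll-like receptor signals to ERK, was at 58.8 and 78.4 TPM, and Mapkapk2, a kinase downstream of p38, at 56.9 and 62.0 TPM. By TPM, 2 of the 30 were over 2-fold lower in replicate 2 and none over 2-fold higher among those with 10 counts in both, beside 8.8% and 2.43% of all detected genes, so the list's share lower was near the background. By CPM 1 gene was over 2-fold higher, Rps6ka4, at 2.10-fold. The 2 lower ones were Crem (5.50 and 2.73 TPM), a cAMP-responsive CREB relative, and Dusp5 (1.94 and 0.62 TPM), an ERK phosphatase, and all 3 were named after their values were seen.

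Other families of stimulus-induced transcription factors served for comparison. The 11 AP-1 genes had medians of 23.1 and 34.6 TPM, and the median of the 10 genes minus theirs was -1.61 ± 0.74 on the log2(TPM + 1) scale (SD, n = 2). The 17 Kruppel-like genes had medians of 0.87 and 0.68 TPM, and the median of the 10 genes minus theirs was 2.43 ± 0.24. With 2 libraries the smallest p of an exact two-sided sign-flip test is 0.5, so no call is possible. The highest AP-1 genes were Junb (177 and 208 TPM), Fos (121 and 40.7 TPM) and Jun (64.8 and 92.02 TPM), and the highest Kruppel-like genes Klf6 (220 and 166 TPM), Klf3 (39.2 and 29.8 TPM) and Klf13 (34.2 and 29.1 TPM). Egr1 lay below Junb and above Jun in both replicates.

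**Figure D5:**
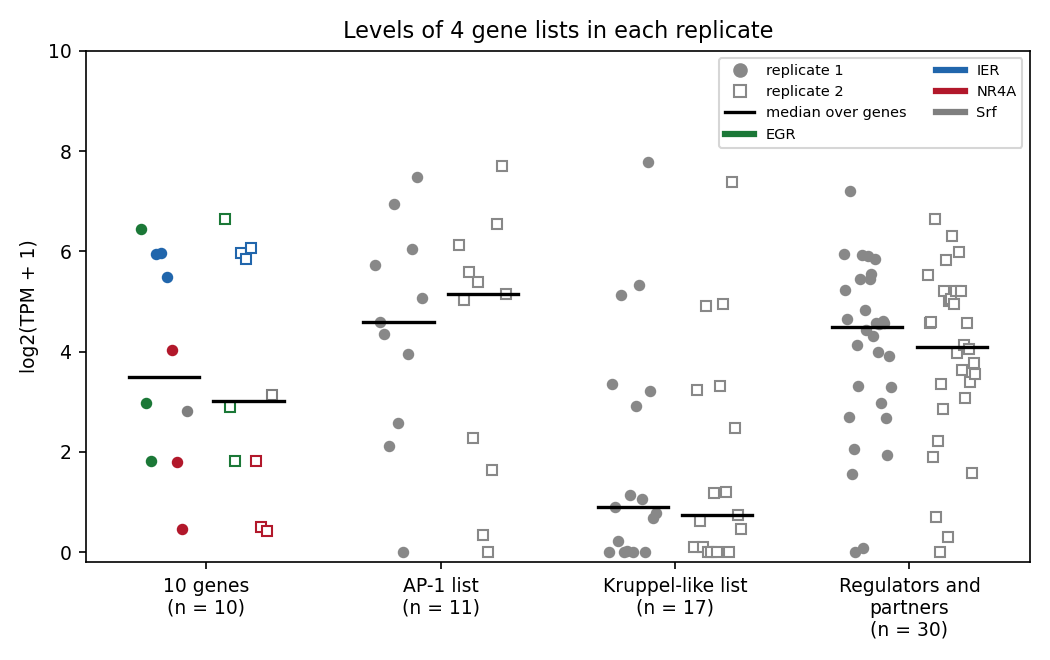
Level of each gene as log2(TPM + 1) in replicate 1 (filled) and replicate 2 (open) for the 10 genes, 11 AP-1 genes, 17 Kruppel-like genes and 30 regulators and partners, with black bars for the median over genes. The median of the 10 genes lies below that of the AP-1 list and above that of the Kruppel-like list in both replicates.

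Other immediate-early genes also differed between the replicates. Among the 10 AP-1 genes with 10 counts in both, 3 were over 2-fold lower in replicate 2 by TPM and 1 over 2-fold higher. The shares of all detected genes were 8.8% and 2.43%. None of the 11 Kruppel-like genes with such counts passed 2-fold. The 3 lower ones were Fos, Fosb (4.98 and 0.27 TPM, from 336 and 20 counts) and Fosl2 (14.5 and 2.12 TPM, from 1224 and 197 counts). The higher one was Batf2 (19.3 and 47.3 TPM). By CPM 3 AP-1 genes were over 2-fold lower and 2 over 2-fold higher, beside 419 and 719 of the 14587 detected genes. The 2 higher ones were Batf2, at 3.12-fold, and Batf3, at 2.18-fold from 27 and 53 counts. Fosb, Fosl2, Batf2 and Batf3 were named after their values were seen. Among the macrophage markers, 1 of 10 was over 2-fold lower, Cd14 (239 and 109 TPM), whose product hands lipopolysaccharide to Toll-like receptor 4. By CPM Cd14 was 1.76-fold lower and did not pass 2-fold, and 1 of the 10, Fcgr1, was 2.02-fold higher. The endothelial marker Kdr was 2.29-fold higher in replicate 2 by CPM. The relation of the Cd14 and AP-1 values to those of Nr4a1 and Nr4a2 was not tested.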

How the data were processed

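Nucleoplasmic, ribosome-depleted RNA of 1 group of 2 replicates was quantified against mm10 and GENCODE M21, as the deposited notes state. The deposited expected counts and TPM per gene and per transcript have the columns RSEM writes, per the file headers, and a second deposited table of estimated counts and TPM per transcript has those kallisto writes. The deposited TPM interval bounds, per the file headers, were read as scores without a fixed total. No source used here gives the program, its version or the strand setting. Short transcripts get a high TPM from few reads, so shares are given by TPM and by counts.

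Members and gene lists were chosen with earlier results of these data known. Values were named for all 10 genes, for the 3 highest of each list by mean TPM, and for the preset partners Nab1, Nab2, Egr4, Rxra, Elk1, Elk3, Elk4, Mrtfa, Mrtfb, Creb1 and Map3k8. Counts rounded to whole numbers were scaled by TMM (edgeR 4.0.16, R 4.3.3). DESeq2 1.42.0 size factors, posterior mean TPM, the kallisto-layout table, rescaling to protein-coding genes, pseudocounts of 1 and 0.1 TPM, no count filter and leaving out each replicate were alternatives. The scaling was tested on simulated data. Python 3.11.15, numpy 2.4.6, pandas 2.3.3, scipy 1.17.1 and matplotlib 3.10.9 were used for the rest. Intervals of counts are 95% exact intervals for counting error only.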

Additional observations from a re-analysis of the deposited data

How the results depend on the processing

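No paired analysis was possible because there is only 1 group. Rescaled to protein-coding genes, the median of the 10 genes was 31.9 TPM, and 51.1 TPM in the kallisto layout, since fewer RNAs share the total. In the kallisto-layout TPM without rescaling all 10 genes were over 2-fold lower in replicate 2, and with rescaling 2 were (Nr4a1 and Nr4a3). Genes outside the group were also low on that unrescaled scale. Their log2 ratios were -2.15 for Lyz2, -1.92 for Adgre1, -2.29 for Klf6 and -0.95 for Fcgr1. The count of 10 is therefore not particular to these genes, and the share over all genes was not computed. By expected counts the EGR share was 48.2% and the IER share 46.9%, and in the kallisto layout the IER share was 52.3% and the NR4A share 10.5%. The difference from the Kruppel-like list was 2.06 in the kallisto layout and 2.12 by posterior mean TPM. The cause of these shifts between tables was not tested. Leaving out each replicate gave 8 to 9 genes at 1 TPM, a median of 7.11 to 11.1 TPM, shares of 33.5 to 35.8% (EGR), 58.0 to 60.6% (IER) and 1.08 to 6.36% (NR4A), and differences of -2.14 to -1.09 (AP-1) and 2.27 to 2.60 (Kruppel-like). No alternative reversed a called direction. Posterior mean TPM put Nr4a2 at a log2 ratio of -1.59, and a pseudocount of 1 TPM at -1.28. The NR4A share rests on replicate 1. Depth limits Nr4a2 and Nr4a3, with 22 to 133 counts.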
